A study of Mus musculus with 15 samples.

Results

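The canonical Wnt ligands examined here were 10 genes, Wnt2b, Wnt3, Wnt3a, Wnt6, Wnt7a, Wnt7b, Wnt9a, Wnt9b, Wnt10a and Wnt10b. They were chosen by name among the 54232 genes of the deposited count table, and all 10 passed the filter on low counts that left 22151 genes for testing. Wnt proteins are secreted, lipid-modified signals. Canonical ligands bind Frizzled receptors and the co-receptors Lrp5 and Lrp6 on a nearby cell, which keeps beta-catenin from being degraded and lets it activate target genes with Tcf and Lef factors. In the face and palate several of them are known to be made by the ectoderm and its derivatives, and many of the same genes also act in the developing brain.

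The tissue was the secondary palate of wild-type (WT) mice, the partition between mouth and nasal cavity, dissected as palatal shelves on embryonic days 13.5, 14.5, 15.5 and 16.5, written E13.5 and so on, and at birth (P0). Every stage had 3 libraries, and each library held the palates of 3 pooled embryos, with no treatment and no second genotype. The p-values therefore measure the spread between pools. In whole tissue of this kind, fewer cells of a type and less RNA per cell cannot be told apart.

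Depth was 21.5 to 69.02 M counts per library (1 M is 1e6), so that 3 counts were worth 0.0421 to 0.131 CPM (counts for a library total set to 1e6), a limit that covers counting error only. The palate mesenchyme markers Pax9 and Osr2 were detected in all 15 libraries, at 23.8 to 94.2 CPM and 16.9 to 73.0 CPM. Epithelial Epcam ranged from 32.0 to 150 CPM and Cdh1 from 40.0 to 219 CPM, so epithelium was present in every library. Neuronal Tubb3, at 285 to 1886 CPM, and Stmn2, at 193 to 882 CPM, were also present in every library. Of the 12 brain progenitor genes the summed level was 704 CPM in E13.5 replicate 2 and 646 CPM in E14.5 replicate 1, and between 101.2 and 487 CPM in the other 13 libraries. The 8 choroid plexus genes summed to 1465 CPM in E14.5 replicate 1 and 810 CPM in E14.5 replicate 3, and at most 501 CPM elsewhere. Because these 3 libraries stood apart, most edgeR results are also given without them. This covers ligands, marker genes and pathway genes from E14.5 to E15.5 and from E13.5 to P0, and the content scores. E14.5 is then left with 1 library, replicate 2, which is assumed to vary like the other stages. Its choroid plexus sum was low, at 54.5 CPM. Its neuronal and brain progenitor sums, 6552 and 487 CPM, were above those of the omitted E14.5 replicate 3, 4248 and 353 CPM. The results without the 3 libraries are therefore not free of neural content at E14.5.

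Wnt7b, which acts in lung epithelium and in the vessels of the brain, had the highest mean level of the 10 ligands at E13.5 and E14.5. Per kilobase of exon it was at 10.7 ± 1.72 CPM per kb (SD, n = 3) at E14.5, and its 3 libraries lay above all libraries of Wnt6, the next in order, at 4.54 ± 0.484 CPM per kb. From E15.5 on the top of the order was shared. Wnt9a, Wnt6 and Wnt7b were at 4.60 ± 0.372, 4.59 ± 1.50 and 4.54 ± 2.05 CPM per kb at E15.5, and their libraries overlapped. At P0 the same 3 genes were at 5.43 ± 1.26, 5.08 ± 3.99 and 5.07 ± 2.50 CPM per kb, again overlapping. Wnt9b had the lowest mean from E14.5 to P0, and at each of those 4 stages its libraries lay below those of the ligand ranked just above it. As a share of the summed CPM of all 10 ligands, Wnt7b held 30.5% to 51.5% in the 6 libraries of E13.5 and E14.5 and 18.1% to 32.4% in the 9 later ones. Wnt9a was the ligand with the highest CPM in E15.5 replicate 1, E16.5 replicate 2 and P0 replicate 1, and Wnt7b in the other 12 libraries.

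**Figure D1:**
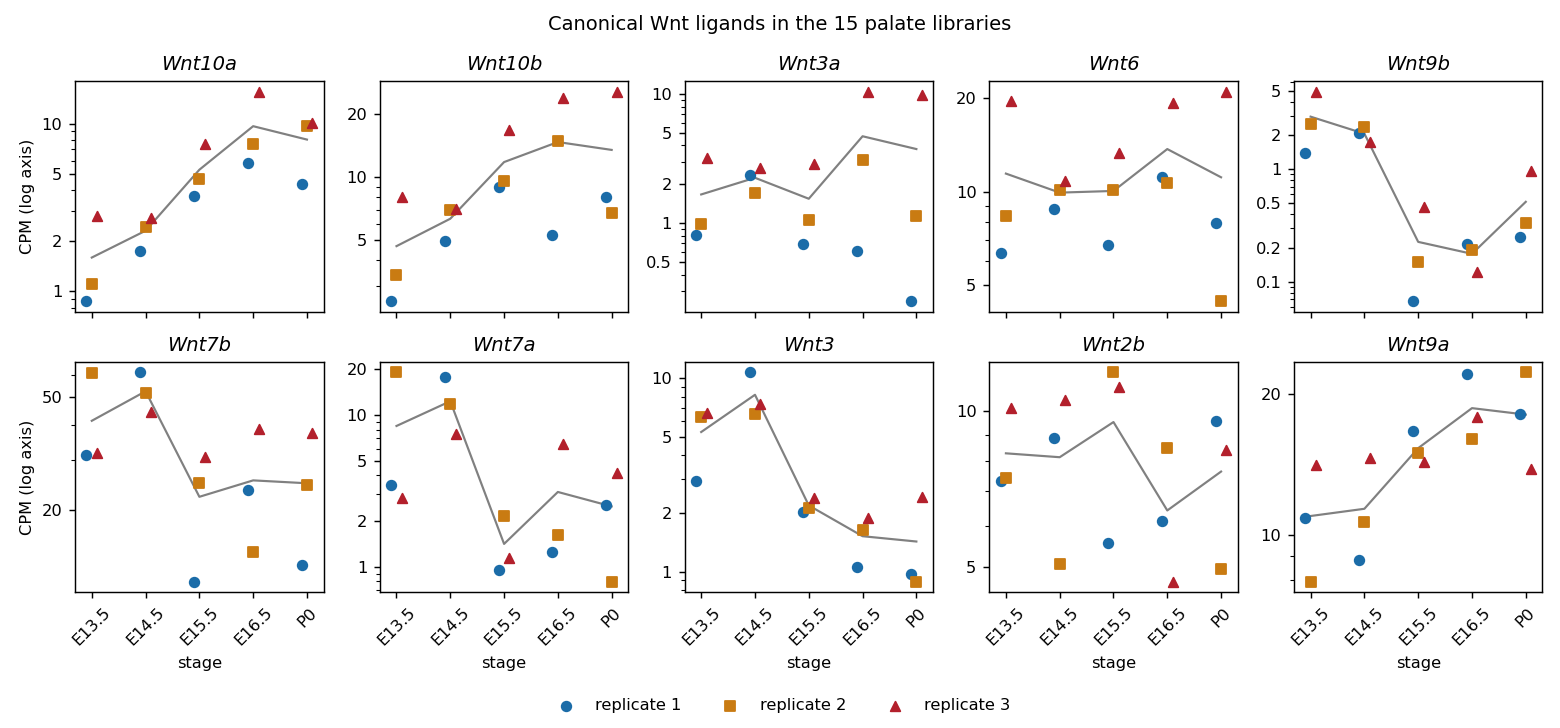
Levels of the 10 ligands in CPM (counts scaled to a library total of 1e6, log axis, separate scale per gene) by stage, with 1 point per library, shape and colour for the replicate number and a grey line through the stage means. Wnt3, Wnt7a and Wnt9b drop between E14.5 and E15.5, Wnt10a climbs from E13.5 to E16.5, and replicate 3 is the highest library at all 5 stages for Wnt3a, Wnt6, Wnt10a and Wnt10b.

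The first question was how each ligand changed with age. Over the 5 stages, 5 of the 10 ligands changed (edgeR quasi-likelihood F test, adjusted p under 0.05), beside 59.1% of all genes tested, so the share of ligands was near the background. They were Wnt3 (adjusted p = 0.000448), Wnt9b (0.000510), Wnt10a (0.00325), Wnt7a (0.0265) and Wnt9a (0.0405). Without the 3 libraries named above, which leaves 1 library at E14.5, Wnt3 and Wnt9b still passed. Calls were then fewer over all genes as well. The call for Wnt9a was lost when any 1 of 11 libraries was left out. That for Wnt7a was lost without E14.5 replicate 1 or 2 or E15.5 replicate 1 or 3.

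Between E14.5 and E15.5, 3 ligands fell and none rose past the threshold, where 13.4% of all genes fell and 26.1% changed in either direction. The 3 were Wnt3, Wnt9b and Wnt7a. The median log2 fold change of the 10 ligands was -0.26, against 0.03 over all genes. DESeq2 called 5 ligands here, with Wnt7b and Wnt10a added, beside 32.6% of all genes.

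Wnt3, which is needed for gastrulation and for limb outgrowth, was at 2.95, 6.28 and 6.61 CPM at E13.5, 10.8, 6.52 and 7.42 at E14.5, 2.04, 2.15 and 2.42 at E15.5, 1.06, 1.63 and 1.88 at E16.5, and 0.971, 0.884 and 2.44 at P0. Every library of E13.5 and E14.5 was above every library of the 3 later stages. The fall from E14.5 to E15.5 was -1.90 on the log2 scale (SE 0.41, adjusted p = 0.00704). From E13.5 to P0 it was -1.90 as well (SE 0.42, adjusted p = 0.00221).

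Wnt9b, whose loss causes cleft lip in mice, was at 1.39, 2.51 and 4.92 CPM at E13.5, 2.12, 2.36 and 1.74 at E14.5, 0.0674, 0.149 and 0.463 at E15.5, 0.216, 0.194 and 0.122 at E16.5, and 0.250, 0.335 and 0.958 at P0. The 6 early libraries lay above the 9 later ones, with counts of 97 to 331 in the early libraries and 4 to 32 in the later ones. The fall was -3.17 from E14.5 to E15.5 (SE 0.67, adjusted p = 0.00631) and -2.56 from E13.5 to P0 (SE 0.66, adjusted p = 0.00571). Its P0 libraries were all above its E16.5 libraries, but the difference of 1.47 (SE 0.73) had an adjusted p of 0.458.

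Wnt7a, which patterns the back of the limb and is also made by neurons, was at 3.45, 19.1 and 2.82 CPM at E13.5, 17.7, 11.7 and 7.46 at E14.5, 0.944, 2.15 and 1.14 at E15.5, 1.25, 1.60 and 6.46 at E16.5, and 2.55, 0.793 and 4.14 at P0. At E13.5 replicate 2 stood far above the other 2 libraries, and at E14.5 all 3 libraries were above all of E15.5. The fall from E14.5 to E15.5 was -3.12 (SE 0.88, adjusted p = 0.0225). This call was lost without E14.5 replicate 1 (-2.77, adjusted p = 0.0815) and without E15.5 replicate 1, 2 or 3. From E13.5 to P0 the value was -1.77 (SE 0.84, adjusted p = 0.0903), with overlapping libraries.

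Wnt7b was at 31.3, 60.7 and 31.7 CPM at E13.5, 61.1, 51.8 and 44.3 at E14.5, 11.2, 24.9 and 30.7 at E15.5, 23.6, 14.2 and 38.6 at E16.5, and 12.8, 24.5 and 37.2 at P0. All E14.5 libraries were above all E15.5 libraries, while later stages spread widely. The difference between those stages was -1.24 (SE 0.47, adjusted p = 0.0690) and did not pass. From E13.5 to P0 it was -0.73 (SE 0.47, adjusted p = 0.194), and -2.18 (SE 0.66, adjusted p = 0.0192) with the 2 content scores described below in the model.

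Part of the neuronal marker list also fell in this step. Of 15 neuronal genes, 6 fell from E14.5 to E15.5 and none rose, with a list median of -1.07. Of 12 brain progenitor genes 2 fell and none rose, with a median of -0.93, and of 8 choroid plexus genes 2 fell, with a median of -0.95, where 13.4% of all genes fell. Without the 3 libraries that stood apart, 1 neuronal gene and no brain progenitor or choroid plexus gene fell, beside 1.32% of all genes, and the medians were -1.08, -0.71 and 0.77. Within stages, Wnt3, Wnt7b and Wnt9b correlated negatively with the neuronal score (r = -0.126, -0.400 and -0.582, as a description over 15 libraries), and Wnt7a positively (0.314). With the brain progenitor score all 4 correlated positively, Wnt3 at 0.625, Wnt7b at 0.786, Wnt9b at 0.207 and Wnt7a at 0.739. The summed neuronal level was 4248 to 8895 CPM at E14.5 and 1712 to 4387 CPM at E15.5. When the epithelial and neuronal scores of each library, defined below, were put into the model, Wnt9b still fell (-4.12, SE 0.68, adjusted p = 0.0121). Wnt3, at -1.78 (SE 0.55, adjusted p = 0.118), and Wnt7a, at -1.46 (SE 1.06, adjusted p = 0.489), no longer passed. Over all genes, 2.7% changed in that fit, beside 26.1% without the scores, so calls were lost for most genes. The value of Wnt3 was close to the -1.90 of the fit without scores. Without the 3 libraries with the highest brain or choroid plexus levels, no ligand passed, but E14.5 then had 1 library. The log2 fold changes were -1.53 for Wnt3, -3.32 for Wnt9b and -3.01 for Wnt7a. The brain progenitor score was not put into the model of stages. Whether the content of neural tissue takes part in the falls of Wnt3 and Wnt7a was not tested beyond these fits.

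**Figure D2:**
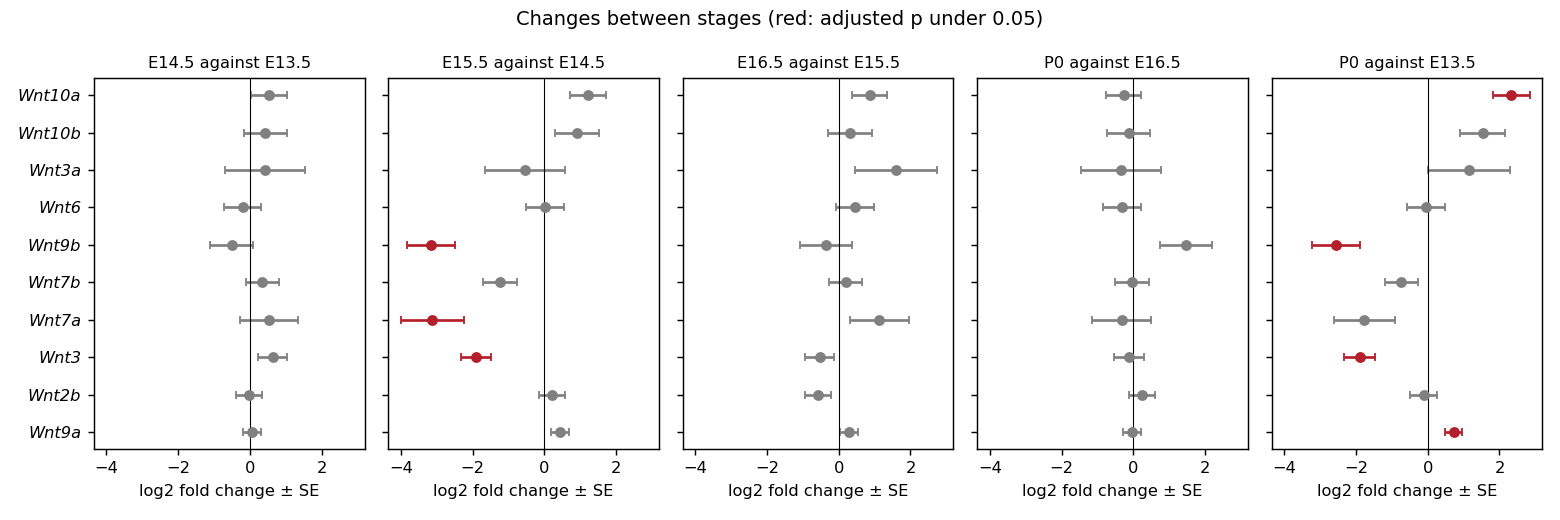
Log2 fold change ± SE of the 10 ligands in the 5 comparisons between stages (3 libraries a stage, edgeR fit of all 15 libraries), with red for an adjusted p under 0.05. The red points are Wnt3, Wnt7a and Wnt9b below 0 from E14.5 to E15.5, and Wnt3 and Wnt9b below and Wnt9a and Wnt10a above 0 from E13.5 to P0.

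Across the whole period, from E13.5 to P0, 2 ligands rose and 2 fell, beside 29.8% of all genes that rose and 26.8% that fell (56.6% in either direction). The 2 that fell were Wnt3 and Wnt9b, and the 2 that rose were Wnt10a and Wnt9a. Without the 3 libraries named above, Wnt3, Wnt9b and Wnt10a passed, and Wnt9a, at 0.55, did not. Fewer of all genes passed in that fit too.

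Wnt10a, whose human counterpart is often mutated in people born without some teeth, was at 0.874, 1.10 and 2.79 CPM at E13.5, 1.73, 2.41 and 2.75 at E14.5, 3.69, 4.67 and 7.55 at E15.5, 5.85, 7.55 and 15.5 at E16.5, and 4.38, 9.67 and 10.01 at P0. All P0 libraries were above all E13.5 libraries, and within each stage replicate 1 was the lowest and replicate 3 the highest. The rise from E13.5 to P0 was 2.33 (SE 0.52, adjusted p = 0.00230). The step from E14.5 to E15.5 was 1.21 (SE 0.50, adjusted p = 0.0937), with libraries that did not overlap. With the epithelial and neuronal scores in the model, the rise to P0 was 1.42 (SE 0.56, adjusted p = 0.0554).

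Wnt9a, which takes part in the formation of joints, was at 10.9, 7.94 and 14.1 CPM at E13.5, 8.85, 10.7 and 14.6 at E14.5, 16.7, 14.9 and 14.3 at E15.5, 22.1, 15.99 and 17.9 at E16.5, and 18.1, 22.2 and 13.8 at P0. Its libraries stayed within a narrow range, and the highest E13.5 library was just above the lowest P0 library. The rise to P0 was 0.72 (SE 0.25, adjusted p = 0.0264). It was lost without E13.5 replicate 1, E13.5 replicate 2 or P0 replicate 2, and with both scores in the model it was 1.15 (SE 0.29, adjusted p = 0.00725).

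Wnt10b, a ligand of hair and tooth placodes and of bone, was at 2.55, 3.41 and 8.07 CPM at E13.5, 4.95, 6.95 and 7.08 at E14.5, 9.02, 9.59 and 16.8 at E15.5, 5.29, 14.9 and 24.1 at E16.5, and 8.07, 6.74 and 25.7 at P0. Replicate 3 was the highest library at every stage, and the spread within a stage reached from 5.29 to 24.1 CPM at E16.5. The difference between P0 and E13.5 was 1.53 (SE 0.62, adjusted p = 0.0517), and that between E15.5 and E14.5 was 0.90 (SE 0.61, adjusted p = 0.292) with libraries that did not overlap. Neither passed. The difference between P0 and E13.5 was near the threshold, and it passed with DESeq2 (1.55, adjusted p = 0.0203), in the edgeR fit with the replicate number as a block (1.49, adjusted p = 0.00493), and without any 1 of 5 libraries, E13.5 replicate 3, E16.5 replicate 1 or 3, or P0 replicate 1 or 2. With both scores in the model it was 0.38 (adjusted p = 0.734), and without the 3 libraries that stood apart 1.36 (adjusted p = 0.193).

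The epithelial markers also differed between these stages. Of all genes, 29.8% rose from E13.5 to P0, and the median was 0.03. Of the 16 epithelial genes 9 rose and none fell, with a median of 1.27. Of the 9 oral basal epithelial genes 7 rose, with a median of 2.18. When the 3 libraries that stood apart were left out, the medians were 1.06 and 1.96. Fewer genes of both lists passed then, and the epithelial share was near that of all genes. The summed epithelial level was 359 to 799 CPM at E13.5 and 1212 to 3754 CPM at P0.

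No ligand changed in the other 3 steps (edgeR). Of all genes, 0.00903% changed from E13.5 to E14.5, 1.41% from E15.5 to E16.5 and 0.352% from E16.5 to P0, and DESeq2 also called none of the 10 ligands there. In each of the 3 steps 0 of 10 ligands had an unadjusted p under 0.05.

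The remaining 3 ligands passed in no comparison of stages. Wnt2b, known from the margin of the retina, was at 7.31, 7.41 and 10.1 CPM at E13.5, 8.86, 5.06 and 10.5 at E14.5, 5.55, 11.9 and 11.1 at E15.5, 6.13, 8.47 and 4.67 at E16.5, and 9.57, 4.94 and 8.40 at P0. The 5 stages overlapped throughout. Wnt6, a ligand of surface ectoderm and other epithelia, was at 6.34, 8.34 and 19.7 CPM at E13.5, 8.79, 10.2 and 10.9 at E14.5, 6.73, 10.2 and 13.3 at E15.5, 11.2, 10.7 and 19.4 at E16.5, and 7.93, 4.45 and 21.03 at P0. The highest library was replicate 3 at all 5 stages, by a wide margin at E13.5 and P0 and a narrow one at E14.5. Wnt3a, required for the tail bud and the hippocampus, was at 0.817, 0.986 and 3.21 CPM at E13.5, 2.37, 1.71 and 2.67 at E14.5, 0.691, 1.06 and 2.89 at E15.5, 0.604, 3.07 and 10.5 at E16.5, and 0.250, 1.13 and 9.88 at P0. At P0 its libraries ran from 9 to 227 counts, a wider range than the fitted change in any step between stages. The difference between P0 and E13.5 was -0.12 (SE 0.36) for Wnt2b, -0.04 (SE 0.53) for Wnt6 and 1.15 (SE 1.14) for Wnt3a.

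The second question was whether each ligand follows the epithelial or the neuronal content of a library. The epithelial score of a library was the mean log2 CPM of 16 genes of epithelial adhesion, proteases and keratins. The neuronal score was the mean over 15 genes of neuronal cytoskeleton and synapses, and neither list holds a Wnt ligand. Stage was kept in the model, so a slope gives the log2 change of a ligand per unit of score among libraries of the same stage. The scores spread widely within stages. From replicate 1 to replicate 3 the epithelial score was 4.54, 4.09 and 5.19 at E13.5, 4.52, 4.74 and 5.05 at E14.5, 4.38, 5.95 and 6.32 at E15.5, 5.69, 5.46 and 5.98 at E16.5, and 5.27, 6.38 and 6.68 at P0. Replicate 3 had the highest epithelial score at all 5 stages and the lowest neuronal score at 4 of them. The deviations of both scores from their stage means were strongly opposed (Pearson r = -0.867 over 15 libraries), so a high epithelial and a low neuronal content can hardly be told apart in these libraries.

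Wnt10a followed epithelial content in the fit by stage, but not once the replicate number was added to it. Its slope on the epithelial score was 0.77 (SE 0.21, adjusted p = 0.0425), 1 of 10 ligands, beside 3.02% of all genes with a positive slope and 7.44% with a slope in either direction. It ran against neuronal content, with a slope of -0.77 (SE 0.22, adjusted p = 0.0492), beside 2.02% of all genes with a negative slope and 9.16% in either direction. No ligand had a positive slope on neuronal content that passed. At an unadjusted p of 0.05, 6 of 10 ligands passed on the epithelial score, all with positive slopes, beside 22.7% of all genes, and 4 of 10 on the neuronal score, all with negative slopes, beside 22.3%. Across the 15 libraries the within-stage correlation of Wnt10a with the epithelial score was r = 0.754 (exact permutation within stages, two-sided, p = 0.00257, adjusted p = 0.0441 over all genes), and Spearman's rho was 0.800 (exact permutation p = 0.00399, adjusted p = 0.0520). By this measure 6.69% of all genes passed. Without the 2 libraries farthest from the median score, E15.5 replicate 1 and P0 replicate 1, r was 0.791. For the neuronal score r was -0.703 (exact permutation p = 0.0296, adjusted p = 0.162) and rho was -0.714 (exact permutation p = 0.0256, adjusted p = 0.164). DESeq2 gave positive epithelial slopes to 4 ligands, Wnt3a, Wnt6, Wnt9b and Wnt10a, beside 6.87% of all genes. In all, 20 such relations were computed for the ligands, and each p was adjusted over the 22151 genes of its score.

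The call for Wnt10a on the epithelial score was close to the threshold. With the replicate number as a block, its slopes were 0.16 on the epithelial score (SE 0.24, adjusted p = 0.863) and -0.21 on the neuronal score (SE 0.22, adjusted p = 0.654). No ligand passed on either in that fit, beside 0.135% of all genes on the epithelial score and 5.91% on the neuronal score. Replicate 3 was highest and replicate 1 lowest at all 5 stages for Wnt10a, and replicate 3 was also highest in the epithelial score at all 5, so the replicate number takes up part of the score. Leaving out any 1 of 10 libraries ended it, and the adjusted p reached 0.138, and the slope was 1.17 without E15.5 replicate 1. On the neuronal score any 1 of 14 libraries ended it when left out, the exception being E16.5 replicate 1. With both scores in 1 model, no ligand passed on either (2 of 10 and 1 of 10 at an unadjusted p of 0.05). Of all genes, 0% passed there on the epithelial score and 0.695% on the neuronal score. With no gene called on the epithelial score, the missing calls on it say nothing about a single ligand. Wnt10a had slopes of 0.51 (SE 0.44) and -0.31 (SE 0.45) in that model. Without the 3 libraries with the highest brain or choroid plexus levels, Wnt10a no longer passed on either score. Its slopes were 0.76 (SE 0.25) on the epithelial and -0.91 (SE 0.33) on the neuronal score. The epithelial slope of Wnt7b was 0.87 (SE 0.17) there.

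**Figure D3:**
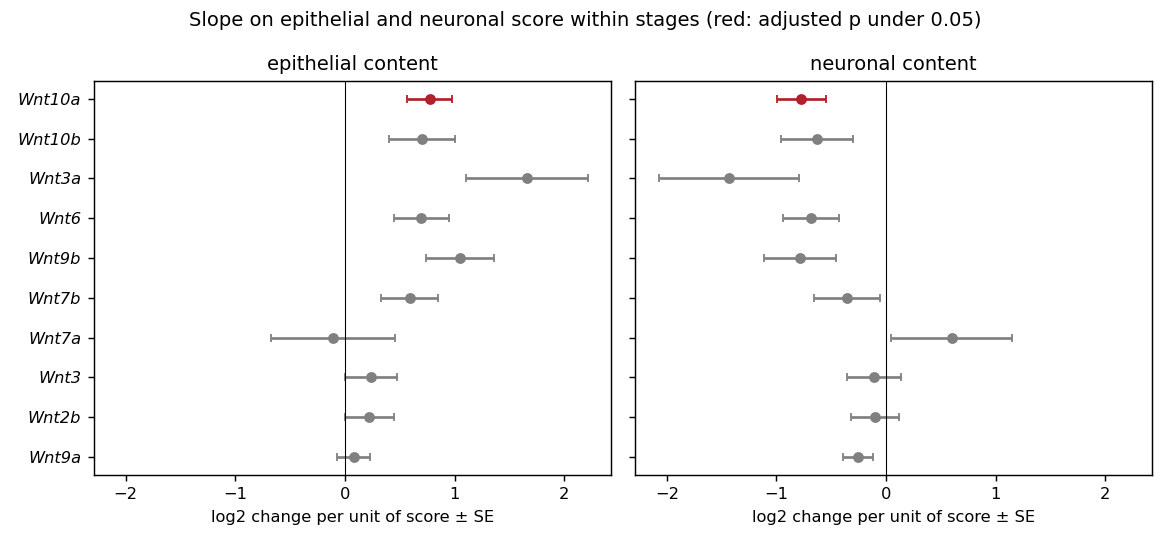
Slope ± SE of each ligand on the epithelial score (left) and the neuronal score (right), in log2 CPM per unit of score with stage in the model (15 libraries), with red for an adjusted p under 0.05. Wnt10a is red on both sides, at 0.77 and -0.77, and Wnt7a is the only ligand with a negative epithelial and a positive neuronal slope.

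Wnt9b, Wnt3a, Wnt6, Wnt10b and Wnt7b had positive epithelial and negative neuronal slopes that did not pass. Wnt9b had an epithelial slope of 1.05 (SE 0.31, adjusted p = 0.0622) and a neuronal slope of -0.78 (SE 0.33, adjusted p = 0.184). For Wnt3a they were 1.66 (SE 0.55, adjusted p = 0.0938) and -1.44 (SE 0.64, adjusted p = 0.209). Its correlation with the epithelial score was r = 0.660 (exact permutation p = 0.0193, adjusted p = 0.128), and rho was 0.732 (exact permutation p = 0.00836, adjusted p = 0.0748). Wnt6 had slopes of 0.70 (SE 0.25, adjusted p = 0.112) and -0.68 (SE 0.26, adjusted p = 0.134). The slopes of Wnt10b were 0.70 (SE 0.30, adjusted p = 0.187) and -0.63 (SE 0.33, adjusted p = 0.290). For Wnt7b they were 0.59 (SE 0.26, adjusted p = 0.199) and -0.36 (SE 0.30, adjusted p = 0.528), and its r of 0.603 with the epithelial score became -0.0614 without E15.5 replicate 1 and P0 replicate 1, so the relation rested on those libraries. Without E13.5 replicate 2, the library with the most brain progenitor signal, the epithelial slope of Wnt7b was 0.80 (SE 0.19, adjusted p = 0.0330).

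Wnt7a, Wnt3, Wnt2b and Wnt9a followed neither score in these tests. The epithelial slope of Wnt7a was -0.11 (SE 0.56) and its neuronal slope 0.60 (SE 0.55, adjusted p = 0.566), the only positive neuronal slope of the 10. Wnt3 had slopes of 0.24 (SE 0.24) and -0.11 (SE 0.24), and Wnt2b of 0.22 (SE 0.22) and -0.10 (SE 0.22). Wnt9a, at 0.08 (SE 0.15) and -0.26 (SE 0.13, adjusted p = 0.294), had the smallest standard errors. In simulated libraries with the depths and spread of these, 44 of 100 genes given an epithelial slope of 1 were called, so slopes of this size can be missed. Only those 100 genes had a slope there, while 7.44% of all genes were called in the real libraries. The adjusted threshold was therefore stricter in the simulation, and its share does not give the power of the real test.

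**Figure D4:**
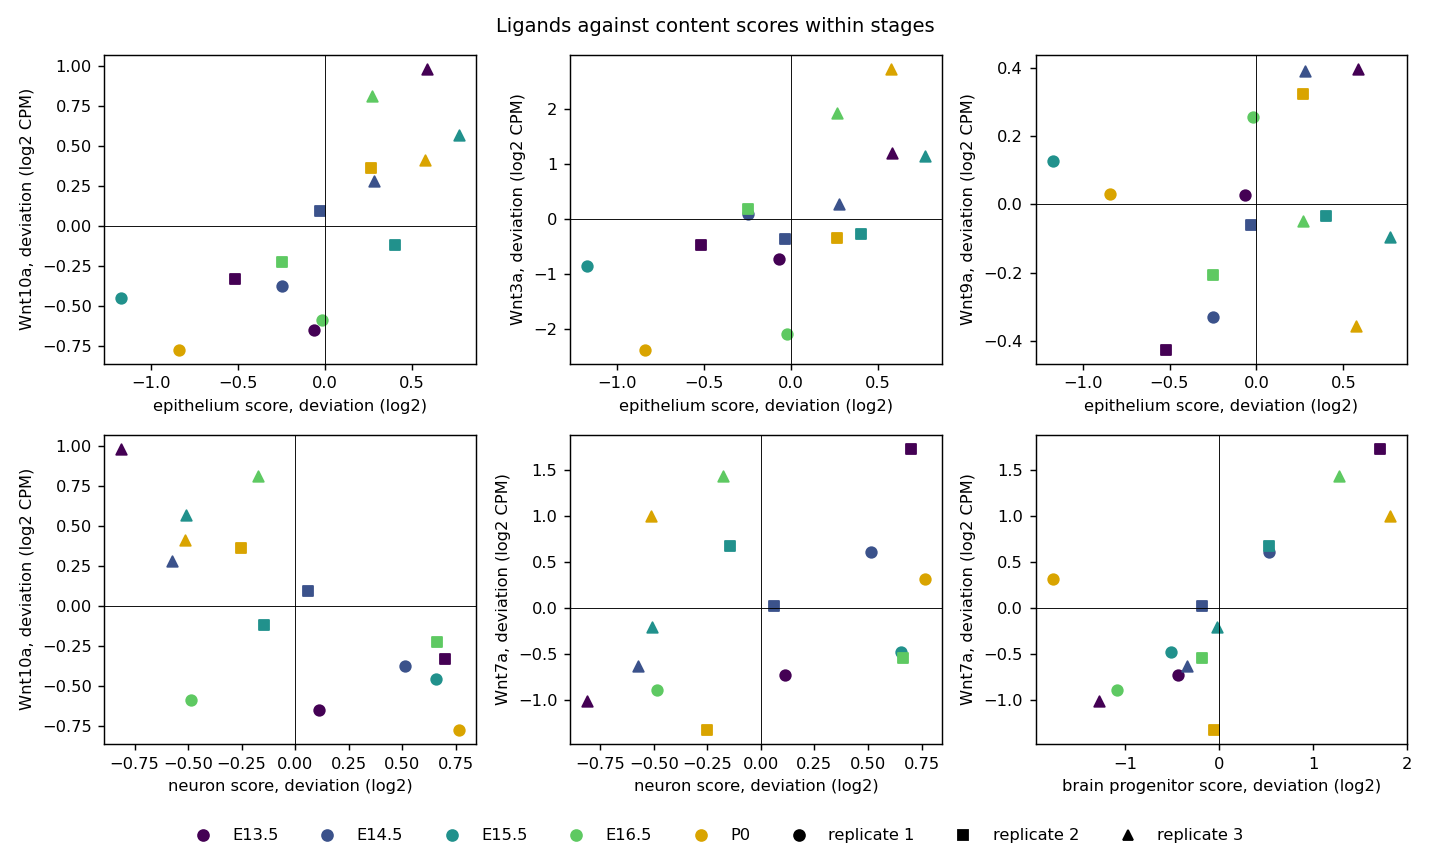
Deviations from the stage mean of Wnt10a, Wnt3a, Wnt9a and Wnt7a (log2 CPM) against deviations of the epithelial, neuronal or brain progenitor score (log2), with 1 point per library, colour for stage and shape for replicate. Wnt10a climbs with the epithelial score (r = 0.754) and drops with the neuronal score (r = -0.703), while Wnt7a lines up with the brain progenitor score (r = 0.739) more than with the neuronal score (r = 0.314).

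Scores from other marker lists were tried in place of the 2 lists above. On the oral basal epithelium list (which includes Krt5, Krt14, Krt15, Trp63, Perp, Dsp, Pkp1 and Col17a1, and shares most of its genes with the epithelial list), 3 of the 10 ligands had positive slopes that passed, beside 1.02% of all genes. They were Wnt10a (0.80, SE 0.11, adjusted p = 0.00937), Wnt3a (1.90, SE 0.32, adjusted p = 0.0191) and Wnt10b (0.85, SE 0.19, adjusted p = 0.0463), while Wnt6 was at 0.67 (SE 0.18, adjusted p = 0.0769). On the dental epithelium list (which includes Shh, Ambn, Amelx, Enam and Sp6), a choice added after seeing the data, Wnt3a (1.37, SE 0.23, adjusted p = 0.00745) and Wnt10b (0.72, SE 0.13, adjusted p = 0.00827) passed, beside 3.02% of all genes. Wnt10a, at 0.37 (SE 0.16, adjusted p = 0.189), did not. Without the 3 libraries that stood apart, no ligand passed on the oral basal list (edgeR), beside 0.084% of all genes, although 7 of 10 had an unadjusted p under 0.05 and Wnt10a was at 0.79 (SE 0.14, adjusted p = 0.0962). On the dental list the slopes without them were 1.38 (SE 0.24) for Wnt3a and 0.71 (SE 0.14) for Wnt10b. The 3 libraries deviated by only -0.147, -0.145 and 0.050 from their stage means on the dental score, so leaving them out tests these slopes little. The dental genes summed to 325 CPM in E16.5 replicate 3 and 260 CPM in P0 replicate 3. In replicates 1 and 2 of those stages they summed to 21.9 to 82.9 CPM.

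On the brain progenitor list (Sox1, Sox2, Pax6, Emx1, Emx2 and others), used in place of the neuronal list, no ligand passed, beside 0.293% of all genes, and 5 of 10 had an unadjusted p under 0.05. The values nearest the threshold were those of Wnt7b, with a slope of 0.40 (SE 0.09, adjusted p = 0.0827), and Wnt7a, with 0.66 (SE 0.17, adjusted p = 0.0990). Without the 3 libraries that stood apart, the slopes were 0.42 (SE 0.14) for Wnt7b and 0.47 (SE 0.21) for Wnt7a.

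The within-stage correlations with 12 marker lists are given as a description over the same 15 libraries. With oral basal epithelium r was 0.928 for Wnt10a, 0.889 for Wnt3a, 0.792 for Wnt10b and 0.692 for Wnt6. The correlations of Wnt6 were higher with osteoblast genes, at 0.778, and with palate mesenchyme, at 0.713, than with any epithelial list. With brain progenitors it was 0.786 for Wnt7b, 0.739 for Wnt7a and 0.625 for Wnt3, against -0.691 for Wnt9a. The correlation of Wnt7b with sensory ganglion genes was -0.837, opposite in sign to that with brain progenitors. Wnt9a correlated with skeletal muscle genes at 0.748, and Wnt2b with no list beyond the 0.558 of olfactory neurons. The lists were not independent of each other, since palate mesenchyme itself correlated with oral basal epithelium at 0.813 within stages. Wnt10b correlated with palate mesenchyme at 0.760 and with dental epithelium at 0.877.

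**Figure D5:**
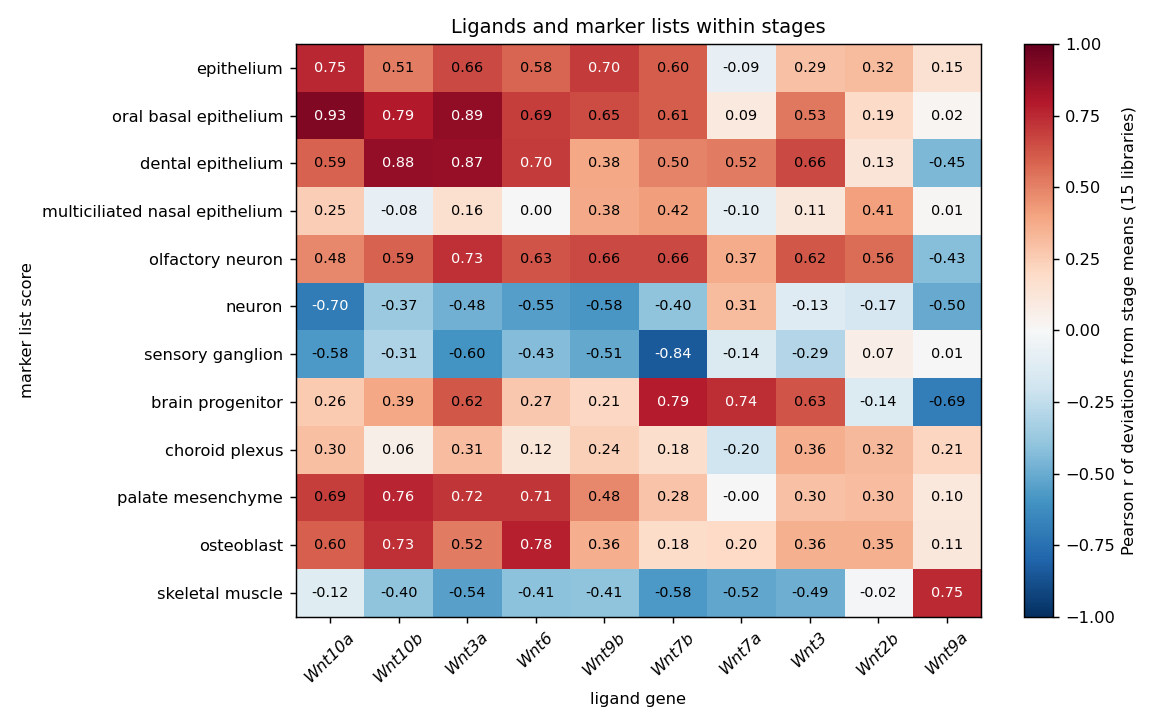
Pearson r between deviations from stage means of each ligand (columns, log2 CPM) and of 12 marker list scores (rows) over 15 libraries, red for positive and blue for negative. Wnt10a and Wnt3a are reddest in the oral basal row (0.928 and 0.889), Wnt10b in the dental row (0.877) and Wnt6 in the osteoblast row (0.778), Wnt7a and Wnt7b in the brain progenitor row and Wnt9a in the skeletal muscle row.

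The ligands also moved with each other within stages. The closest pair was Wnt3a and Wnt10b (r = 0.893), followed by Wnt6 and Wnt10b (0.858), Wnt3a and Wnt10a (0.811) and Wnt10a and Wnt10b (0.785). Wnt7a and Wnt9a moved in opposite directions (r = -0.768). Several of these genes are neighbours on a chromosome (GRCm38). Wnt6 (chr1:74771892-74785322) and Wnt10a (chr1:74791516-74804179) lie 6193 bases apart and correlated at 0.655. Wnt9b (chr11:103727364-103749821) and Wnt3 (chr11:103774150-103817957) lie 24328 bases apart, correlated at 0.591, and both fell at E15.5. Wnt3a (chr11:59248033-59290752) and Wnt9a (chr11:59306928-59333552) lie 16175 bases apart and correlated at -0.256. The other 4 are Wnt2b (chr3:104945272-104961921), Wnt7a (chr6:91363981-91411363), Wnt7b (chr15:85535437-85582473) and Wnt10b (chr15:98770712-98778150).

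Promoter sequence was available in the RefSeq table for GRCm38.p6 for 8 of the 10 ligands, not for Wnt7b and Wnt10a. The 250 bases before the start site are printed for Wnt3a, Wnt6 and Wnt10b, which moved together within stages, and for Wnt7a, which did not move with them. Capitals mark matches to GCCNNNGGC, the palindromic motif of AP-2 factors, a family active in ectoderm. The Wnt3a window is chr11:59290752-59291001 (- strand), that of Wnt6 chr1:74771642-74771891 (+ strand), that of Wnt10b chr15:98778151-98778400 (- strand) and that of Wnt7a chr6:91411354-91411603 (- strand).
Wnt3a: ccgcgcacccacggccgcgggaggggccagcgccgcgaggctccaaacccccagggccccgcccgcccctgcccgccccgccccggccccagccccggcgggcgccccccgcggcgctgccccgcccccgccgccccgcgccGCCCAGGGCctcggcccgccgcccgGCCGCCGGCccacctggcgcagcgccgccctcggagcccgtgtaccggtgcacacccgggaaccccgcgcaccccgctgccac
Wnt6: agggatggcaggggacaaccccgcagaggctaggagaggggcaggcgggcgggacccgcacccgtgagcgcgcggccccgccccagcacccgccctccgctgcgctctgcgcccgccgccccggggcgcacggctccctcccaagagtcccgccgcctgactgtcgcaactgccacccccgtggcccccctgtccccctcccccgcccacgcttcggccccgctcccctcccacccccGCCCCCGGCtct
Wnt10b: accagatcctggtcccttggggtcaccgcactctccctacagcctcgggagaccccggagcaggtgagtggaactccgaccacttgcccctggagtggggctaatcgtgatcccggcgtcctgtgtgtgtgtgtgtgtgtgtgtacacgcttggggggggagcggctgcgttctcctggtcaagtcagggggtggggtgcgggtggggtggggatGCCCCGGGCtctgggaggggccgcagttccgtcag
Wnt7a: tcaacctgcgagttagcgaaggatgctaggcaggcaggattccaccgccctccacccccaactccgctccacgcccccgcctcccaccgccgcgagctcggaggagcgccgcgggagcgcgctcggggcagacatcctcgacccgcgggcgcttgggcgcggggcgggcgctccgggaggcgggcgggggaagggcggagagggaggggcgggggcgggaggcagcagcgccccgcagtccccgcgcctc
The motif occurred 2 times in Wnt3a, 1 time each in Wnt6 and Wnt10b, and not in this window of Wnt7a. It was also found in Wnt3 and Wnt9a and not in Wnt2b or Wnt9b, and 13.7% of all 32851 promoters of the table held it. The windows of the ligands were rich in G and C, from 66.8% in Wnt10b to 87.6% in Wnt3a against a median of 52.4% over the table. The GC box GGGCGG, searched on both strands and able to overlap the AP-2 motif, occurred 9 times in Wnt3a, 6 times each in Wnt6 and Wnt7a and not in Wnt10b, and 32.7% of all promoters held it. TATAAA, held by 12.4% of all promoters, and CTTTGA, the core of Tcf and Lef sites, held by 13.8%, occurred on neither strand in any of the 8 windows.

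The genes whose log2 CPM was most like each ligand's over all 15 libraries were found among those at a mean of at least 1 CPM, with differences between and within stages both in the measure. For Wnt10a they were Pkp1 (r = 0.974) and Col17a1 (0.971), both of the oral basal list, and Gna15 (0.962). For Wnt10b they were Aox4 (0.942), the tooth epithelium factor Sp6 (0.934) and the basal keratin Krt5 (0.934), and for Wnt3a they were Ascl5 (0.903), Slc39a8 (0.882) and Vwa2 (0.872). Wnt7a was most like Gm27032 (0.945), Crhbp (0.924) and Igfbpl1 (0.922), and Wnt7b like Cxcr4 (0.921), Gldc (0.907) and Gm11650 (0.897). For Wnt3 the nearest included Wdr48 (0.959) and Surf6 (0.958). For Wnt9b they were Pym1 (0.937), Rbm34 (0.936) and 1810022K09Rik (0.929), and for Wnt9a Slc35f5 (0.973), Dnajc25 (0.966) and Ccl11 (0.961). Wnt6 was nearest to Cd3eap (0.862), Gcat (0.818) and Zfp64 (0.817), and Wnt2b had the weakest match, with Fam169b (0.797), B230369F24Rik (0.737) and Ooep (0.721).

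The rest of the pathway is given for context from E13.5 to P0, where 29.8% of all genes rose and 26.8% fell (56.6% in either direction). Among 9 other Wnt ligands, 8 passed the filter, 1 rose and 1 fell. Wnt4 was at 28.2 ± 9.91 CPM at E13.5 (SD, n = 3) and 90.8 ± 21.8 CPM at P0 (1.69 on the log2 scale, SE 0.37, adjusted p = 0.00204), and Wnt5a, a mainly non-canonical ligand, fell from 118 ± 43.0 CPM to 37.4 ± 13.5 CPM (-1.66, SE 0.38, adjusted p = 0.00283). Both also had positive epithelial slopes in the fit by stage, of 0.66 (adjusted p = 0.0145) and 0.74 (adjusted p = 0.00314). Of the 8 tested, 3 had positive epithelial slopes that passed, beside 3.02% of all genes. With the replicate number as a block, 0.135% of all genes passed on the epithelial score. The slopes of Wnt4 and Wnt5a with that block or without the 3 libraries are not given here. Of the genes that equip cells to release Wnts, neither Wls (-0.09, SE 0.22) nor Porcn (0.43, SE 0.22) passed with all 15 libraries. Without the 3 libraries that stood apart this did not hold for both genes. The median of the 2 was 0.17 with those libraries and 0.21 without them. Among 12 receptors and co-receptors 7 fell and none rose, among them Lrp6 (-0.79, SE 0.25), Fzd2 (-1.73, SE 0.25), Fzd1 (-0.65, SE 0.17) and Fzd3 (-1.94, SE 0.39). With the E13.5 and E14.5 libraries that stood apart left out, 7 receptors fell, 1 other Wnt ligand rose and 1 fell, beside 40.6% of all genes changed.

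Secreted antagonists moved both ways, with 6 of 13 higher and 4 lower at P0. Sfrp2 fell by 1.49 and Sfrp1 by 0.96 on the log2 scale, while Dkk3 rose by 1.24 and Wif1, which binds Wnts outside the cell, by 2.84. Of 10 feedback targets, genes that beta-catenin signalling is known to raise, 6 fell and 1 rose. Apcdd1 fell by 1.36, Axin2 by 1.00 and Nkd1 by 0.94, and Tcf7 rose by 1.69. The median over the targets was -0.97, against 0.03 over all genes. Without the same 3 libraries, 4 antagonists rose and 3 fell, and 1 target rose and 5 fell, with a median over the targets of -1.04.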

How the data were processed

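RNA of 15 palate libraries was sequenced by the authors, and per the file headers the deposited counts are fragments per gene from featureCounts (Subread 2.0.1), counted in pairs on the reverse strand over GENCODE M18. Per the submitters' processing notes, cutadapt 3.4, FastQC 0.11.9, Bowtie2, HISAT2 2.2.1 and SAMtools 1.12 were used and the build was mm10; the role of each aligner is not given in the sources used here. The recorded command had no option for counting multiply mapped or ambiguous fragments, so a ligand that overlaps another gene may be undercounted. The gene length that the authors deposited in the same table was used for CPM per kb. Symbols came from GENCODE M21 for 54079 of 54232 genes.

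Counts were filtered with filterByExpr by stage (minimum count 10), scaled by TMM factors and modelled over all 15 libraries in R 4.3.3 with edgeR 4.0.16. Stage was the only term, and score deviations from stage means were added for the slopes. CPM use TMM-adjusted totals, and log2 CPM a prior count of 2. P-values were adjusted by Benjamini-Hochberg over 22151 genes with a threshold of 0.05. Correlations were tested by exact permutation within stages (7776 orders). In simulated libraries, 57 of 100 genes changed 4-fold between E14.5 and E15.5 and 44 of 100 genes with an epithelial slope of 1 were called, with 5 and 1 false calls among 21541 unchanged genes. The unchanged genes were drawn independently of each other with no effect of stage or content. These rates therefore do not give the power or the false calls of the real tests. The chi-square between libraries of the same stage, divided by its degrees of freedom, was 29.5 to 225, so no libraries were counted as 1.

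The ligands, marker lists and tests were chosen with earlier results of these data known. Values are given for the 10 ligands in every library. At most 4 genes of another list are named, taken by mean CPM among those past the threshold, or by mean CPM where none passed, and for each ligand the 3 genes with the highest correlation among those at a mean of at least 1 CPM. Some genes that these rules or the marker lists include are not reported here by name. Alternatives were DESeq2 1.42.0, other normalizations and filters, the replicate number as a block, leaving out libraries, only the 6 libraries of a contrast, the scores as covariates or together, and other marker lists. The dental epithelium list and leaving out 3 libraries with brain or choroid plexus signal were chosen after seeing the data.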

Additional observations from a re-analysis of the deposited data

How the results depend on the processing

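Of 1919 values of single ligands under an alternative, 1813 kept their side of the threshold (96 of them with the other sign, under the threshold in both fits), 67 lost a call, 37 gained one and 2 reversed. The reversals were the neuronal slope of Wnt10a, at 0.12 (adjusted p = 0.708) with the brain progenitor list and 0.17 with the choroid plexus list. The number of ligands changed over the 5 stages was 5. It was lower without the 3 libraries with brain or choroid plexus signal, as was the share of all genes. From E14.5 to E15.5 it was 3. It was 5 with DESeq2, with the replicate block and with only the 6 libraries of the contrast (Wnt7b and Wnt10a were added in each). With the scores as covariates it was 1, where 2.7% of all genes changed in place of 26.1%. No ligand passed without the 3 libraries, which left 1 library at E14.5. The number that followed epithelial content was 1. It was 4 with DESeq2 (Wnt3a, Wnt6, Wnt9b and Wnt10a), 3 with the oral basal list and 2 with the dental list. It was 0 with both scores in 1 model, where 0% of all genes passed, and with the replicate block, where 0.135% did. The number that followed neuronal content, 1, was 0 with no filter on low counts, with the replicate block, with the brain progenitor or choroid plexus list and with both scores in 1 model. Of all genes, 4.31%, 5.91%, 0.293%, 0.00451% and 0.695% passed in those fits, in that order. No ligand passed on neuronal content without the 3 libraries either. The cause of these shifts was not tested.

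Leaving out each library in turn gave 3 to 5 ligands over the 5 stages, 2 to 3 from E14.5 to E15.5, 3 to 6 from E13.5 to P0, 0 to 3 on epithelial content, 0 to 3 on neuronal content and 0 in the other steps. The count over stages was 3 without E14.5 replicate 1 or 2 or E15.5 replicate 1 or 3. The 3 on epithelial content came without P0 replicate 2 (Wnt6, Wnt9b and Wnt10a) and the 3 on neuronal content without E16.5 replicate 1 (Wnt3a, Wnt10a and Wnt10b, all with negative slopes).

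The labels do not say that a replicate number marks a shared source. Over all genes, deviations of libraries with the same number correlated at -0.303 to 0.548, over 0.1 in 9 of 30 pairs, and 7 of 15 libraries were closest to their own number, so the numbers were not treated as pairs. Single features did go with the number, with replicate 3 highest at all 5 stages in the epithelial, oral basal and palate mesenchyme scores and in Wnt3a, Wnt6, Wnt10a and Wnt10b. In the fit with the replicate block, the epithelial slope of Wnt10a was 0.16 (adjusted p = 0.863) and its neuronal slope -0.21 (adjusted p = 0.654). Over the 5 stages the block ended the call for Wnt9a (adjusted p = 0.0594) and added Wnt10b (0.0109), which DESeq2 also called (0.0414), and it added Wnt10b from E13.5 to P0. Upper-quartile normalization moved the median of all genes from E14.5 to E15.5 from 0.03 to 0.16 and the share of higher calls from 48.6% to 63.0%, with the same 3 ligands called.

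The depth limited Wnt9b most, with 4 to 32 counts in the libraries from E15.5 on, and Wnt3a at P0, with 9 counts in replicate 1.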

Other observations

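Replicate 3 had the highest score of the 3 libraries at all 5 stages for the epithelial, oral basal epithelial and palate mesenchyme lists, for the other Wnt ligands and for the secreted Wnt antagonists. The feedback targets were highest in replicate 3 at 4 stages. For Wnt3a the gap was widest at P0, where replicate 3 was at 9.88 CPM and replicate 1 at 0.250 CPM. The labels give the replicate number with no further meaning, and whether the libraries with the same number share a dissection was not tested.

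Wnt1, the chromosomal neighbour of Wnt10b and a gene of the dorsal midbrain, fell from E14.5 to E15.5. It was the only 1 of the 8 other tested Wnt ligands to do so, beside 13.4% of all genes. It was at 1.79, 0.227 and 0.534 CPM in the E14.5 libraries and at 0.0674, 0 and 0.0434 CPM at E15.5 (log2 fold change -4.47, SE 0.88, adjusted p = 0.00444). The highest value was in E14.5 replicate 1, the library with the most choroid plexus signal. Without the 3 libraries with brain or choroid plexus signal, E14.5 was left with replicate 2, at 0.227 CPM. The median log2 fold change of the 8 ligands was 0.28 with and without the 3 libraries.

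The correlation of Wnt9a with the other members was negative within stages for Wnt7a (-0.768) and Wnt3 (-0.526), although its own gene lies beside that of Wnt3a.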
